A study of Mus musculus with 8 samples.

Results

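The astrocyte genes described here are 10 genes widely used as markers of astrocytes, the glial cells that surround synapses and contact blood vessels. They are S100b, Slc1a2, Slc1a3, Aqp4, Gfap, Gja1, Glul, Apoe, Clu and Sparcl1, chosen by name from 16599 gene names listed in single-neuron libraries. All 10 were found. The libraries came from Patch-seq, in which a cell is recorded with a patch pipette and its RNA is then sequenced, of 8 estrogen receptor-α (ERα) neurons of the ventrolateral ventromedial hypothalamus (vlVMH). Each neuron was picked from a female ERα-ZsGreen mouse, whose green reporter is driven by the ERα promoter. Every neuron received the same 5 mM and 1 mM glucose steps. GE neurons 1, 4, 6 and 8 hyperpolarized and fired less in low glucose. GI neurons 2, 3, 5 and 7 depolarized and fired more. The line was kept on a C57BL6/J background. The study gives an age range for its mice as a whole and not for the mice of these neurons.

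GI neuron 3 had 126914 reads, against 6144126 to 14900568 in the other 7 libraries, and the study set it aside. Class levels are therefore those of 4 GE and 3 GI neurons, with GI neuron 3 beside them. The neurons came from 2 mice, and no label ties a neuron to a mouse. Each class was treated as 1 sample, and no p-value was computed from the neurons. Values are FPKM, the number of sequenced fragments of a gene divided by its length and by the size of the library, as deposited by the authors with an interval for each value. FPKM is a level per length, so levels of different genes can be compared within a library. GE neuron 1 had the most reads and the lowest mapped share of the 7, at 48.2% against 74.7% to 77.3% in the other 6. The 9 pan-neuronal genes found, of 10 looked for, were listed in all 7 libraries.

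In the brain, astrocytes take up the glutamate released at synapses through the transporters encoded by Slc1a2 and Slc1a3, and the enzyme encoded by Glul turns it into glutamine that neurons reuse. Astrocytes also move water and potassium, are joined to each other by gap junctions, and secrete lipid-carrying and matrix proteins. In the hypothalamus they lie between blood vessels and the neurons that respond to glucose. A library of a single picked neuron holds all RNA collected with that cell. RNA made by the neuron and RNA of a neighbouring astrocyte cannot be told apart in these values.

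All 10 astrocyte genes were listed in each of the 7 neurons. Apoe stood highest, between 1631 and 6439 FPKM, and ranked from 19th to 139th among the genes of its library. Clu, Sparcl1 and S100b followed, then Glul, with class means between 54.9 and 521 FPKM. Slc1a3, Gfap and Slc1a2 lay at class means of 22.7 to 49.6 FPKM, Gja1 at 13.6 and 13.7 FPKM, and Aqp4 under 5 FPKM in both classes. Slc1a3 and Gfap averaged 42.9 FPKM each over the 7 neurons, and their order differed between classes. The neurons differed from each other by 2.97 times (Slc1a2) to 6.41 times (Gfap) between the highest and the lowest value of a gene.

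**Figure D1:**
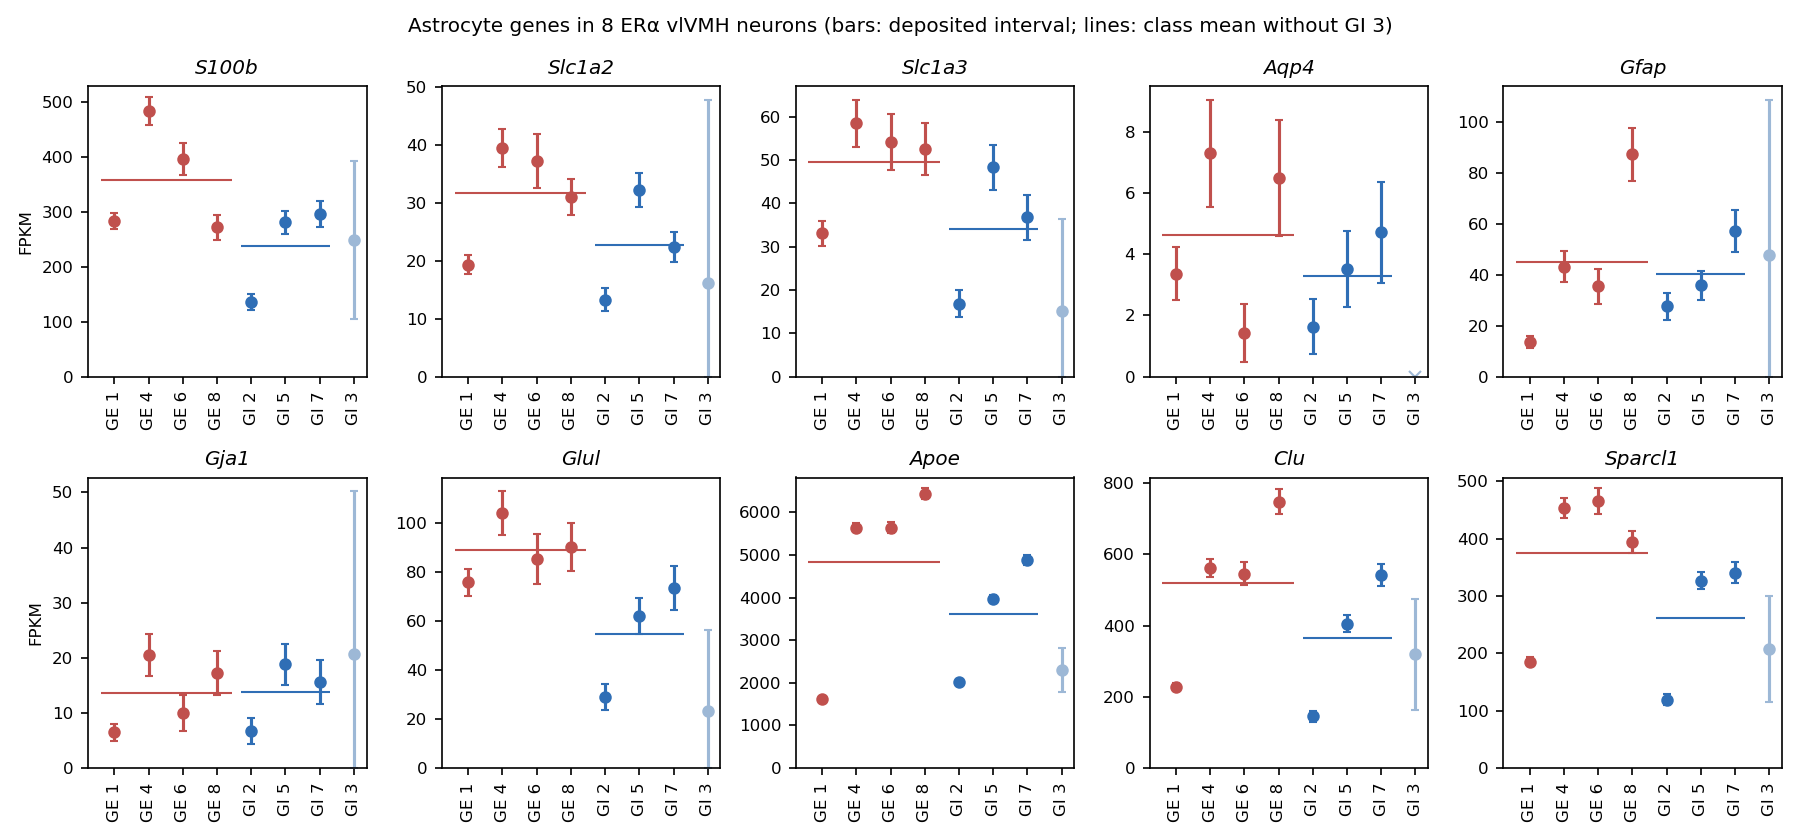
FPKM of each astrocyte gene in the 4 GE neurons (red), the 3 GI neurons (blue) and GI neuron 3 (pale blue), with the deposited interval as bars and the class mean as a line. Each panel has its own scale from 0. GE neuron 1 and GI neuron 2 were the lowest pair for 7 of the 10 genes, and the cross marks Aqp4, which GI neuron 3 did not list.

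The mean level was higher in GE neurons for 9 of the 10 genes, and for 8 of the 9 that reached 5 FPKM in either class, where 52.3% of all 6990 genes at that level were higher in GE neurons. The differences were moderate. Ratios are given as the log2 of the GE mean over the GI mean after adding 1 FPKM to both. They ran from -0.02 (Gja1) to 0.68 (Glul), with a median of 0.51 for the 9 genes beside 0.02 for all 6990. None of the 10 reached a log2 ratio of 1, which 3.71% of all genes did, and none lay at -1 or below, where 2.92% lay. In 1 gene, Glul, every GE neuron stood above every GI neuron, which held for 2.68% of all genes. No astrocyte gene was higher in every GI neuron than in every GE neuron, against 2.02% of all genes. Without GI neuron 2 the median was 0.17, and without GE neuron 1 it was 0.69. The spread of the median astrocyte gene between neurons of a class was 0.47 on the log2 scale (SD pooled over both classes), about the size of the class difference.

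**Figure D2:**
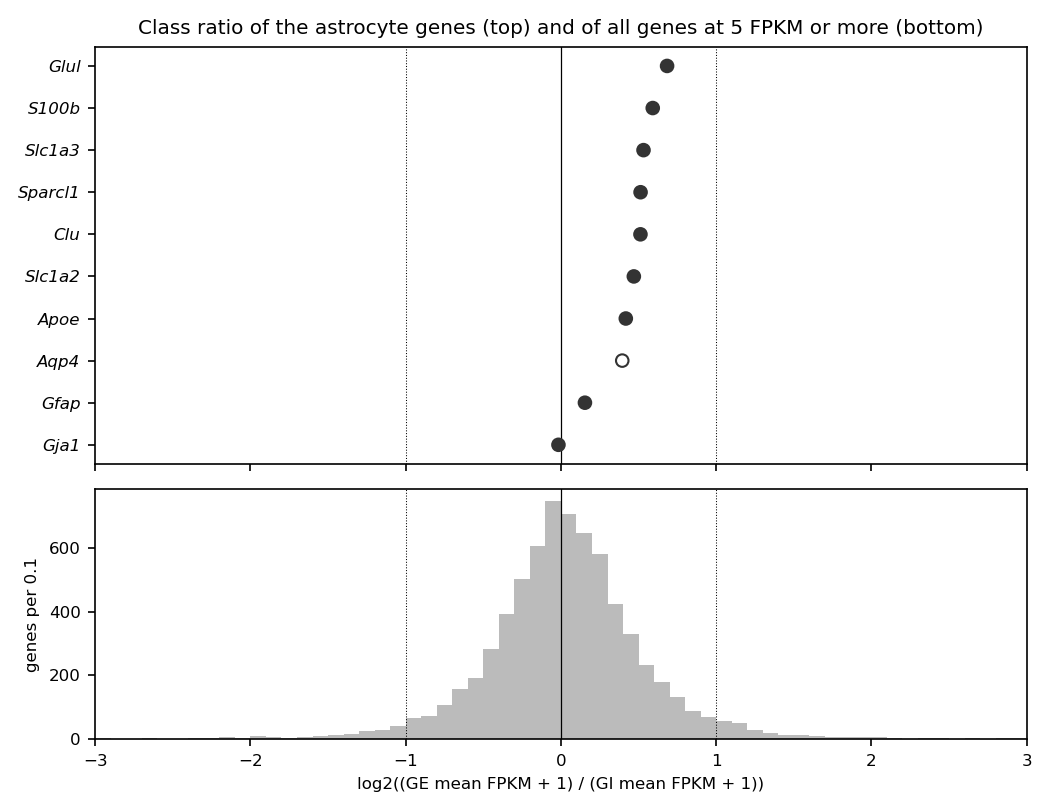
Log2 ratio of GE over GI mean FPKM, after adding 1, for each astrocyte gene (top; the open circle is Aqp4, under 5 FPKM in both classes) and for the 6990 genes at 5 FPKM or more (bottom, genes per bin of 0.1). Dotted lines mark ratios of -1 and 1, and 45 genes lie outside the axis. The astrocyte genes lie between -0.02 and 0.68.

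The genes of glutamate uptake moved together. Slc1a2 encodes GLT-1, the main glutamate transporter of astrocytes, and lies on chromosome 2 of GRCm38 from 102658659 to 102790784. It had 19.3, 39.4, 37.3 and 31.0 FPKM in GE neurons 1, 4, 6 and 8, against 13.3, 32.2 and 22.4 FPKM in GI neurons 2, 5 and 7. The classes overlapped, since GI neuron 5 stood above GE neurons 1 and 8. The means were 31.7 FPKM in GE against 22.7 FPKM in GI neurons, a log2 ratio of 0.47. That ratio was 0.21 without GI neuron 2 and 0.80 without GI neuron 5.

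Slc1a3, which encodes the second astrocytic transporter, GLAST, lies on chromosome 15 from 8634124 to 8710764. It had 33.1, 58.5, 54.1 and 52.6 FPKM in GE neurons 1, 4, 6 and 8, against 16.9, 48.3 and 36.8 FPKM in GI neurons 2, 5 and 7. GE neuron 1 alone of its class lay among the GI neurons. The log2 ratio was 0.53, with 0.22 without GI neuron 2 and 0.86 without GI neuron 5, and without GE neuron 1 every GE neuron lay above every GI neuron. Over the 7 neurons Slc1a2 and Slc1a3 had the highest rank correlation of any pair of astrocyte genes, 0.96, and the ratio of Slc1a3 to Slc1a2 stayed within 1.27 to 1.71.

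Because this pair followed each other most closely, the 250 bases before the RefSeq start of each are shown (RefSeq, GRCm38.p6), read 5′ to 3′ on the gene's strand. Capitals mark matches on either strand to TTGGC, a half-site bound by NFI factors, and to ACAAT, a core bound by SOX factors, 2 families known from astrocyte development. The Slc1a2 window is chr2:102706188-102706437 on the plus strand and belongs to a start inside the annotated gene. The Slc1a3 window is chr15:8710808-8711057 on the minus strand.
Slc1a2: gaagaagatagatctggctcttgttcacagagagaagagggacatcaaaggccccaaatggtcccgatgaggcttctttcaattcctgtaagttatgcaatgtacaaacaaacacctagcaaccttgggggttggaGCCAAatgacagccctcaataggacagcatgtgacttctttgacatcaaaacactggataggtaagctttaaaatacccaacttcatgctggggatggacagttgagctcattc
Slc1a3: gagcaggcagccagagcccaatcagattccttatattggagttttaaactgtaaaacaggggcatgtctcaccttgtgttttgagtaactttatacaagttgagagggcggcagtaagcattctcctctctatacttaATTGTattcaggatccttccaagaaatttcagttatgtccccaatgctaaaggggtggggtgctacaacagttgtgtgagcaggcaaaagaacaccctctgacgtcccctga

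The Slc1a2 window held 1 match to the NFI letters, as GCCAA, and none to the SOX letters. In the Slc1a3 window there was 1 match to the SOX letters, as ATTGT, and none to the NFI letters. Of the 7 astrocyte genes in the RefSeq promoter table, 4 had an NFI match in any of their windows and 2 a SOX match. Among all 32851 windows of this length, 41.5% held the NFI letters and 27.7% the SOX letters. These shares are per window and the counts are per gene, and Apoe has more than 1 window, so the 2 cannot be compared directly.

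Glul encodes glutamine synthetase, which makes glutamine from glutamate and ammonia, and lies on chromosome 1 from 153899944 to 153909723. It had 75.8, 104, 85.3 and 90.2 FPKM in GE neurons 1, 4, 6 and 8, against 29.0, 62.1 and 73.5 FPKM in GI neurons 2, 5 and 7. The lowest GE neuron thus lay above the highest GI neuron, but their deposited intervals overlapped, 70.3 to 81.3 FPKM in GE neuron 1 and 64.5 to 82.6 FPKM in GI neuron 7. With means of 88.8 FPKM in GE against 54.9 FPKM in GI neurons, Glul had the highest log2 ratio of the 10 genes, 0.68. Without GI neuron 2 it was 0.38. When libraries were scaled without mitochondrial genes or without the 100 highest genes, no astrocyte gene separated the classes.

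The other genes of the glutamate and glutamine cycle did not differ much between classes. Of 18 looked for, 17 were found and 10 reached 5 FPKM, 7 of them higher in GE and 3 in GI neurons. Of all 6990 genes at that level, 52.3% were higher in GE neurons. The median log2 ratio of the 10 genes was 0.11, and none lay past 1 or -1, where 3.71% and 2.92% of all genes lay. Got1, the cytosolic aspartate aminotransferase, averaged 47.7 FPKM in GE against 41.1 FPKM in GI neurons. Gad1, which makes GABA from glutamate, averaged 29.5 and 37.1 FPKM in GE and GI neurons (log2 ratio -0.32). Got2, the mitochondrial aminotransferase, averaged 32.4 FPKM in GE against 33.1 FPKM in GI neurons.

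The channel genes were the lowest of the astrocyte genes. Aqp4 encodes the water channel of astrocyte endfeet and lies on chromosome 18 from 15389496 to 15410982. It had 3.37, 7.31, 1.42 and 6.50 FPKM in GE neurons 1, 4, 6 and 8, against 1.64, 3.53 and 4.72 FPKM in GI neurons 2, 5 and 7. The lowest value of all stood in GE neuron 6, where the other astrocyte genes except Gja1 and Gfap were above their mean. Reading the upper arm of the interval as 2 SD of counting error, that value rested on about 9 fragments, and that of GI neuron 2 on about 13. The log2 ratio of Aqp4 was 0.39, and ran from 0.14 (without GI neuron 2) to 0.66 (without GI neuron 7) as neurons were left out in turn.

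Gja1 encodes connexin 43, the gap junction protein that joins astrocytes, and lies on chromosome 10 from 56377330 to 56402513. It had 6.45, 20.5, 10.04 and 17.2 FPKM in GE neurons 1, 4, 6 and 8, against 6.77, 18.8 and 15.6 FPKM in GI neurons 2, 5 and 7. The classes lay on top of each other, with means of 13.6 FPKM in GE against 13.7 FPKM in GI neurons. Its log2 ratio of -0.02 ran from -0.32 to 0.26 as neurons were left out in turn.

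Of the structural and calcium-binding proteins, Gfap varied most. It encodes the intermediate filament protein of astrocytes, rises in reactive astrocytes, and lies on chromosome 11 from 102887336 to 102900912. Its level was 13.6, 43.1, 35.5 and 87.4 FPKM in GE neurons 1, 4, 6 and 8, against 27.6, 35.8 and 57.3 FPKM in GI neurons 2, 5 and 7. Both the highest and the lowest neuron were GE neurons. The means were 44.9 FPKM in GE against 40.2 FPKM in GI neurons, and the log2 ratio of 0.15 was -0.38 without GE neuron 8, -0.05 without GI neuron 2 and 0.08 to 0.49 with any other neuron left out.

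S100b, which encodes a calcium-binding protein of astrocytes, lies on chromosome 10 from 76253853 to 76261159. It had 283, 483, 396 and 272 FPKM in GE neurons 1, 4, 6 and 8, against 136, 281 and 296 FPKM in GI neurons 2, 5 and 7. GE neurons 4 and 6 stood above all GI neurons, and GE neurons 1 and 8 were close to GI neurons 5 and 7. The log2 ratio was 0.59, and 0.31 without GI neuron 2. S100b and Gfap had the lowest rank correlation of any pair of astrocyte genes, 0.11. In GE neuron 8 the ratio of Gfap to S100b was 0.32, against 0.05 to 0.09 in the other GE neurons and 0.13 to 0.20 in the 3 GI neurons.

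The secreted proteins were the most abundant. Apoe encodes the apolipoprotein with which astrocytes carry cholesterol to other cells, and lies on chromosome 7 from 19696109 to 19699188. Microglia make it as well. It had 1631, 5638, 5643 and 6439 FPKM in GE neurons 1, 4, 6 and 8, against 2016, 3969 and 4878 FPKM in GI neurons 2, 5 and 7. GE neuron 1 was the lowest of the 7 neurons, and the other GE neurons were the highest. The intervals of 20 of the 21 pairs of neurons did not overlap, the pair with overlap being GE neurons 4 and 6. The means of 4838 FPKM in GE against 3621 FPKM in GI neurons gave a log2 ratio of 0.42, which was 0.71 without GE neuron 1, 0.69 without GI neuron 7, 0.25 without GE neuron 8 and 0.13 without GI neuron 2.

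Clu encodes clusterin, a secreted chaperone and lipoprotein component, and lies on chromosome 14 from 65968483 to 65981547. It had 227, 562, 546 and 748 FPKM in GE neurons 1, 4, 6 and 8, against 146, 406 and 543 FPKM in GI neurons 2, 5 and 7. Its log2 ratio was 0.51, with 0.13 without GI neuron 2, 0.29 without GE neuron 8 and 0.92 without GI neuron 7. Over the 7 neurons Clu followed the mean of the 10 genes most closely (Pearson's r 0.98, with Clu itself in the mean), and its rank correlation with Apoe was 0.93.

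Sparcl1 encodes hevin, a matrix protein of astrocytes that promotes synapse formation, and lies on chromosome 5 from 104079111 to 104113733. It had 185, 453, 466 and 395 FPKM in GE neurons 1, 4, 6 and 8, against 119, 327 and 341 FPKM in GI neurons 2, 5 and 7. GE neurons 4, 6 and 8 stood above all GI neurons, and GE neuron 1 lay between GI neurons 2 and 5. The log2 ratio was 0.51, and 0.17 without GI neuron 2.

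Genes that bind or carry apolipoproteins were mostly low. All 13 looked for were found, 3 reached 5 FPKM, with 2 of these having the higher mean in GE neurons. Of all 6990 genes at that level, 52.3% had. Apoc1, an apolipoprotein encoded next to Apoe, averaged 207 FPKM in GE against 215 FPKM in GI neurons. Apod, a lipid-binding protein, averaged 79.0 FPKM in GE against 53.8 FPKM in GI neurons, with the highest value in GE neuron 4, at 148 FPKM. Sorl1, a sorting receptor that binds Apoe, averaged 5.08 FPKM in GE against 4.32 FPKM in GI neurons, and so reached 5 FPKM in GE neurons alone.

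Apoe made up 65.8% to 80.3% of the summed FPKM of the 10 genes. The sum was 2478, 7409, 7275 and 8139 FPKM in GE neurons 1, 4, 6 and 8, against 2512, 5183 and 6268 FPKM in GI neurons 2, 5 and 7. GE neuron 1 and GI neuron 2 were alike in their sums, and the other GE neurons lay above the other GI neurons. Without Apoe the sum was 847, 1771, 1632 and 1700 FPKM in GE neurons 1, 4, 6 and 8, against 496, 1214 and 1391 FPKM in GI neurons 2, 5 and 7, with the same neurons low. The log2 ratio of the class means of the full sum was 0.44. Leaving out GI neuron 2 gave 0.14, leaving out GE neuron 1 gave 0.71 and leaving out GI neuron 7 gave 0.72.

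GE neuron 1 and GI neuron 2 were the lowest pair for 7 of the 10 genes, and GI neuron 2 was among the lowest pair for all 10. GE neuron 4 was the highest for 6 genes and GE neuron 8 for 3. Without GE neuron 1, 5 genes separated the classes, Slc1a3, Glul, Apoe, Clu and Sparcl1, where 5.85% of all genes at 5 FPKM or more had every GE above every GI neuron. With GI neuron 2 left out as well, a choice made after seeing the data, the same 5 genes did, beside 10.3% of all genes.

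**Figure D3:**
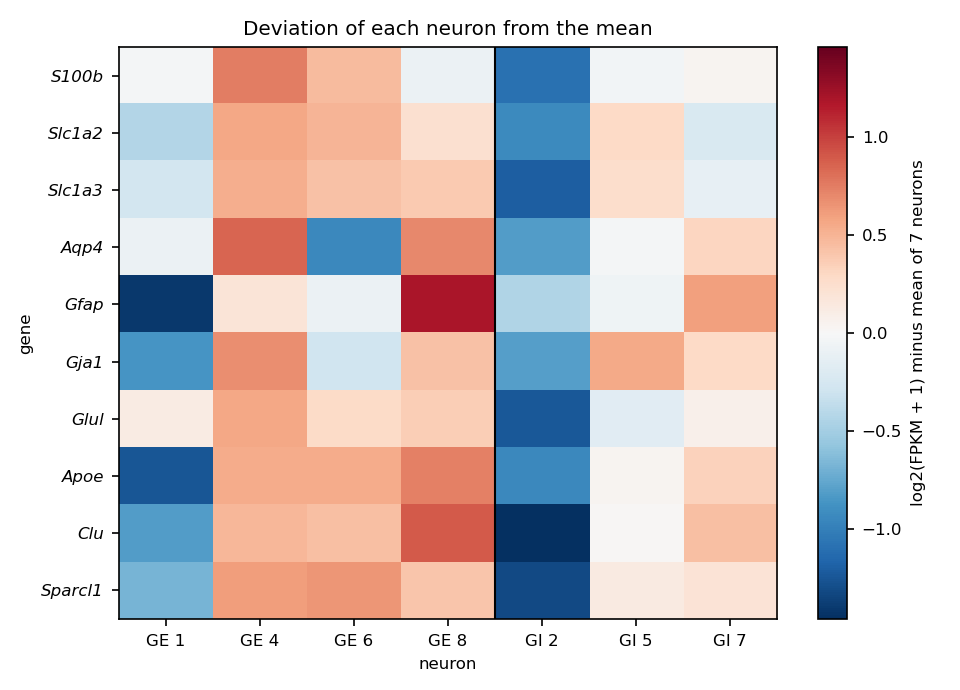
Deviation of each of the 7 neurons (columns, GE left of the line, GI right) from the mean log2(FPKM + 1) of each astrocyte gene (rows). Red is above and blue below the mean. GE neuron 1 and GI neuron 2 are mostly blue, and Gfap in GE neuron 8 is 1.19 above its mean.

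The 10 genes went up and down together across neurons. All 45 pairs had a rank correlation above 0 over the 7 neurons (Spearman's rho of log2(FPKM + 1)), between 0.11 and 0.96, with a median of 0.68. Over all pairs of the 6990 genes the median was 0.04, and 53.0% of pairs were above 0. The points of these correlations are neurons that share mice, preparation and the scaling of each library, so they are a description. With GE neuron 1 and GI neuron 2 both left out the median over pairs was 0.40. Slc1a3, Clu and Sparcl1 had the highest median correlation with the other astrocyte genes, 0.79 each, and S100b and Aqp4 the lowest, 0.43 each.

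**Figure D4:**
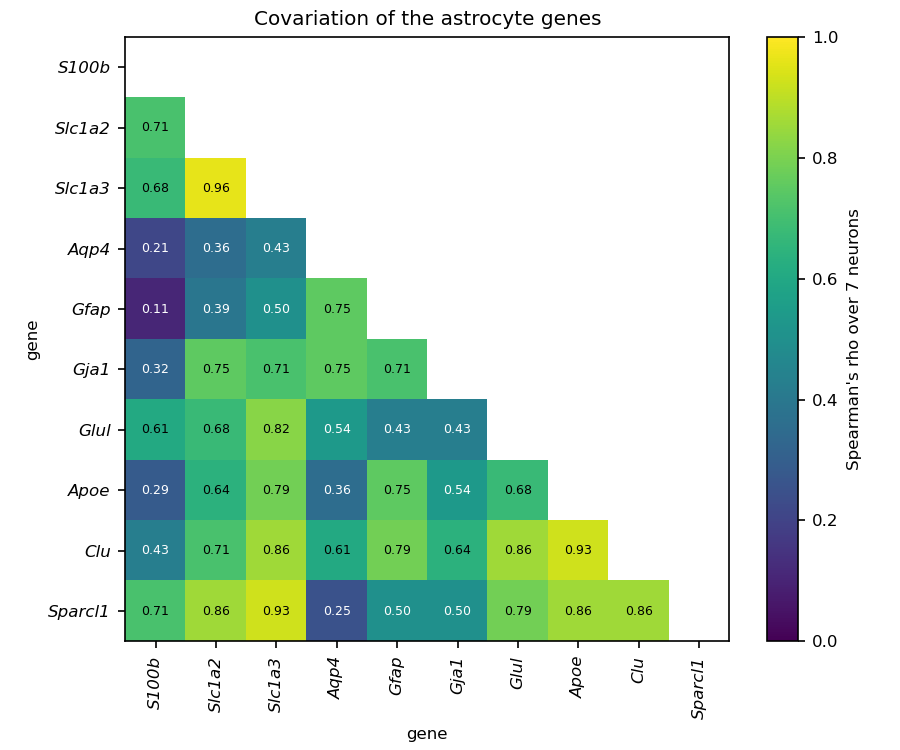
Spearman's rho of log2(FPKM + 1) over 7 neurons for each of the 45 pairs of astrocyte genes. Yellow cells are close to 1. The highest is Slc1a2 with Slc1a3 (0.96) and the lowest S100b with Gfap (0.11).

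Other astrocyte genes showed the same direction to a smaller extent. All 35 looked for were found and 32 reached 5 FPKM, 25 of them higher in GE and 7 in GI neurons, with a median log2 ratio of 0.25. Aldh1l1, a folate enzyme used as a marker of astrocytes, averaged 8.38 FPKM in GE against 2.17 FPKM in GI neurons (log2 ratio 1.57), and GI neuron 2 did not list it. Slc6a9, a glycine transporter, averaged 6.37 FPKM in GE against 1.32 FPKM in GI neurons (1.67), with 14.1 FPKM in GE neuron 4 and none listed in GI neuron 5. GI neuron 3, set aside for its low read number, listed Aldh1l1 at 10.5 and Slc6a9 at 9.82 FPKM, each above the GE mean. Both Aldh1l1 and Slc6a9 were low. By class mean without GI neuron 3 they reached 5 FPKM in GE neurons alone, so the filter itself favours a ratio above 0 for them. The most abundant were Cst3, a secreted protease inhibitor, at 23624 FPKM in GE against 20983 FPKM in GI neurons, and the metallothionein genes Mt1 and Mt3. Mt1 averaged 8534 FPKM in GE against 8973 FPKM in GI neurons, and Mt3 averaged 2484 and 2235 FPKM. Of the 32 genes, 28 correlated above 0 with the mean log2 level of the 10 astrocyte genes (median Pearson's r 0.73, n = 7 neurons). The rest ran against it, Mt1 (r -0.54), Mt2 (-0.44), Mt3 (-0.58) and Vim (-0.37). Among 2893 genes listed in all 7 neurons at a mean of 20 FPKM or more, 43.1% did, with a median r of -0.10. That set has a higher floor than the 32 genes, some of which were not listed in every neuron, so the comparison is a rough one.

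Marker lists of other cells differed in how they moved with the astrocyte genes. Their summed levels correlated with the mean log2 level of the astrocyte genes at r 0.97 for oligodendrocyte precursors, 0.88 for oligodendrocytes, 0.67 for microglia, -0.04 for endothelial and mural cells, -0.37 for tanycytes and ependyma, and -0.83 for neurons (Pearson, log2 sums, n = 7 neurons). For single genes at 5 FPKM or more, r was above 0 in 9 of 9 oligodendrocyte, 9 of 10 microglial and 1 of 1 precursor genes (Olig1). It was above 0 in 4 of 8 tanycyte and ependymal and 0 of 2 endothelial and mural genes. Of the neuronal genes 4 of 9 had r above 0 (median r -0.07), so the -0.83 holds for their sum. That sum averaged 2061 FPKM in GE neurons, of which Gap43 gave 1073 FPKM. The part of these cells in the result was not tested. The 9 neuronal genes summed to 1705 to 2577 FPKM in GE and 1708 to 2445 FPKM in GI neurons, and the highest sums of each class were in GE neuron 1 and GI neuron 2, where the astrocyte sums were lowest. In those neurons the ratio of the astrocyte sum to the neuronal sum was 0.96 and 1.03, against 3.60 to 4.34 in the other GE neurons and 3.03 and 3.54 in the other GI neurons. These ratios rest mostly on Apoe, which gave 65.8% to 80.3% of the astrocyte sum. Without Apoe the astrocyte sum was above the neuronal sum in GE neuron 4 alone of the 7 neurons, 1771 against 1705 FPKM. In GI neuron 2 it was 496 against 2445 FPKM. Gap43, of growth cones, averaged 1073 FPKM in GE against 1063 FPKM in GI neurons, Stmn2, a microtubule regulator, 408 and 372 FPKM, and Snap25, of vesicle release, 319 and 301 FPKM.

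Of 10 oligodendrocyte genes, 9 were listed in all 7 neurons and Cldn11 in 6, with sums of 568 to 1288 FPKM in GE and 372 to 732 FPKM in GI neurons. Of 9 at 5 FPKM or more, 8 were higher in GE neurons, as were 52.3% of all 6990 genes at that level. Mbp, of myelin, averaged 452 FPKM in GE against 303 FPKM in GI neurons, Cnp 84.8 and 58.9 FPKM, and Ermn 12.8 and 5.88 FPKM (log2 ratio 1.00). The 6 genes of oligodendrocyte precursors were low, with sums of 23.2 to 32.3 FPKM in GE and 16.1 to 27.7 FPKM in GI neurons, and 3 of them, Pdgfra, Cspg4 and Gpr17, were not listed in every neuron. Olig1, the 1 gene of them at 5 FPKM or more, averaged 22.7 FPKM in GE against 17.8 FPKM in GI neurons. The mean sum in GE neurons was 28.5 FPKM, so the correlation of the precursor sum rests mostly on Olig1. Olig2 averaged 1.75 and 3.64 FPKM, highest in GI neuron 2 and lowest in GE neuron 1, and Pdgfra averaged 1.75 and 0.40 FPKM.

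All 10 microglial genes were listed in all 7 neurons, with sums of 897 to 2080 FPKM in GE and 1293 to 1623 FPKM in GI neurons. All reached 5 FPKM. The GE mean was the higher for 7 of them and the GI mean for 3, where 52.3% of all 6990 genes at that level were higher in GE neurons. The median log2 ratio of the 10 microglial genes was 0.19, beside 0.02 for all genes. The 3 higher in GI neurons are among the 4 named here. Tyrobp, a signalling adaptor, averaged 630 FPKM in GE against 732 FPKM in GI neurons, C1qb, of complement, 346 and 301 FPKM, and C1qc 179 and 183 FPKM. Tmem119, a microglial membrane protein that reached 5 FPKM in GI neurons alone, averaged 2.65 FPKM in GE against 6.65 FPKM in GI neurons (log2 ratio -1.07). Its highest value was 17.3 FPKM in GI neuron 7. Endothelial and mural genes were nearly absent. Of 10 looked for, 9 were found and 1 was listed in all 7 neurons, Cldn5 and Pecam1 were listed in 3 neurons each, and the sums were 3.97 to 39.2 FPKM in GE and 8.16 to 29.8 FPKM in GI neurons. Igfbp7 averaged 3.83 FPKM in GE against 8.06 FPKM in GI neurons, Vtn 2.36 and 6.46 FPKM (log2 ratio -1.15), and Ly6c1 4.25 and 3.77 FPKM. Igfbp7 and Vtn reached 5 FPKM in GI neurons alone.

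**Figure D5:**
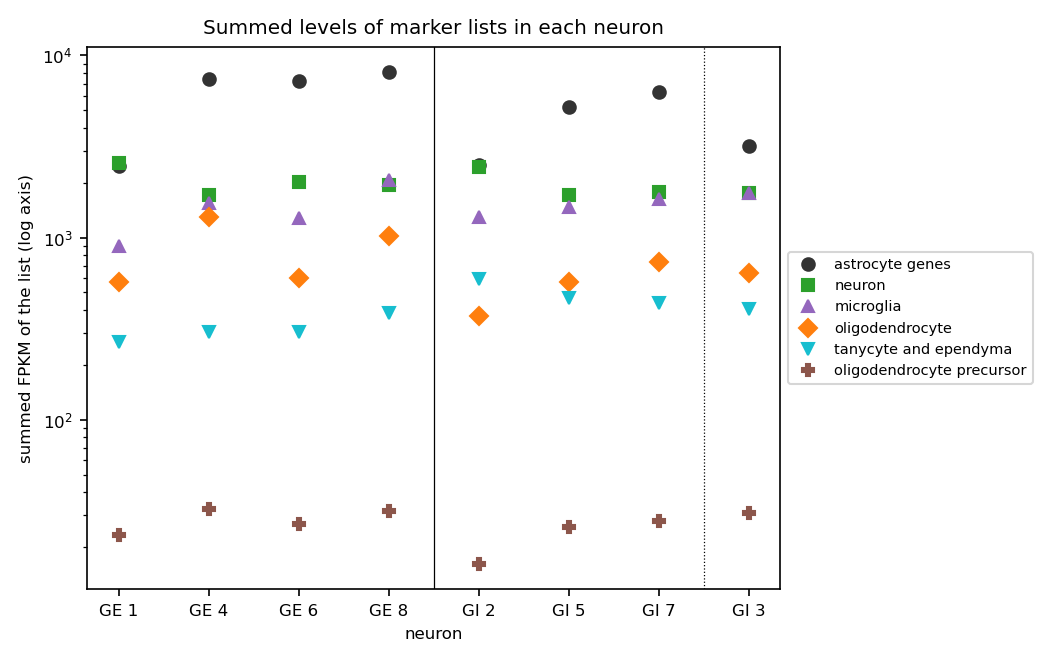
Summed FPKM (log axis) of the astrocyte genes and of 5 marker lists in each neuron, GE neurons left, GI neurons right and GI neuron 3 last. In GE neuron 1 and GI neuron 2 the astrocyte and neuronal sums meet, and in the other 5 deep libraries the astrocyte sum is over 3 times the neuronal sum. Apoe alone gives 65.8% to 80.3% of the astrocyte sum.

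Across the 7 neurons the mean log2 level of the astrocyte genes also moved with the mapped share of reads (r 0.48) and against the log2 number of reads (r -0.33). GE neuron 1, with the most reads, had the lowest mapped share. GI neuron 2 had 7406040 reads and a mapped share of 74.7%. The mean log2 level of its astrocyte genes was 5.43, below the 5.88 of GE neuron 1. Whether reads or mapping bear on these levels was not tested.

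Among 2893 other genes listed in all 7 neurons at a mean of 20 FPKM or more, 70 (2.42%) had a Pearson correlation of 0.9 or more with the mean log2 level of the astrocyte genes. A correlation of -0.9 or less was held by 57 genes. The 5 most alike were Cltc, the clathrin heavy chain (0.99), Gm2382 (0.98), Gpm6b, a membrane proteolipid (0.98), Bax, a mediator of apoptosis (0.98), and Serpine2, a secreted protease inhibitor (0.98). Gpm6b averaged 67.6 FPKM in GE against 43.5 FPKM in GI neurons, with 23.4 FPKM in GI neuron 2. Among the 5 least alike were Atp5g1, of ATP synthase (-0.98), Ndufa7, of respiratory complex I (-0.97), Fis1, of mitochondrial fission (-0.97), and Eid1 (-0.96). These 4 were highest in GI neuron 2, with Atp5g1 at 3775 FPKM there.

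In GI neuron 3, 9 of the 10 astrocyte genes were listed. Of these, 6 lay within the range of the 7 other neurons, S100b at 248 FPKM, Slc1a2 at 16.1, Gfap at 47.9, Apoe at 2297, Clu at 319 and Sparcl1 at 207 FPKM. Slc1a3 at 15.1 FPKM and Glul at 23.4 FPKM lay below it, and Gja1 at 20.8 FPKM lay above it, each on about 2 fragments. The values rested on about 1 to 78 fragments, and the intervals of 5 genes reached 0. Aqp4 was not listed. At its mean level over the other neurons, this library would have held about 0.63 fragments of it, so that a fragment could as well have been missed as found.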

How the data were processed

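The authors deposited FPKM values per gene and library (SMART-Seq v4 and Nextera libraries, paired-end) with an interval of unstated level, taken here to hold counting error alone. Reads copied by amplification do not count separate molecules. Genes not listed were taken as 0. What tool, annotation and build made the FPKM is not given in the sources used here. Positions in the tables lay within 1000 bp of GENCODE vM21 for 0 of the 10 genes, so positions are those of GENCODE on GRCm38. The submitters' notes name Trim Galore 0.4.1, STAR 2.5.3a and featureCounts 1.6.0 for the counts of the study's own test, which were left out. The deposited quality table of the authors gives reads and the fraction mapped per library. Its rows of means and of a test were not used. Gene names with several loci (110) or turned into dates (24) were left out.

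Class levels are mean FPKM, ratios use a pseudocount of 1, and shares of all genes cover those at 5 FPKM or more in either class. Genes and lists were chosen with earlier results of these data known. Named from other lists are the 3 highest by mean and those past a log2 ratio of 1 or -1, and for likeness the 5 highest and lowest correlations. Of the genes this rule takes, 2 are not reported here. Tried instead were medians, GI neuron 3 added, each neuron left out, other pseudocounts, filters and scalings. Promoter windows are RefSeq's. Python 3.11.15, numpy 2.4.6, pandas 2.3.3 and matplotlib 3.10.9 were used, and scripts were tested on simulated data.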

Additional observations from a re-analysis of the deposited data

Results flagged for a closer look

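In 4 of 18 quantities examined among the 4 GE neurons, 1 neuron lay far from the other 3 (its gap to the nearest neuron, as a share of the range, was above Dixon's critical value). Chance flags about 1 in 20 such groups, and these quantities share genes. Apoe in GE neuron 1 was 1631 FPKM (gap 0.83 of the range), and the summed FPKM of the 10 genes there was 2478 (0.85). In GE neuron 8 the ratio of Gfap to S100b was 0.32 (0.85), the highest, and that of Sparcl1 to Clu was 0.53 (0.86), the lowest.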

How the results depend on the processing

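Of 237 values recomputed under alternatives, 232 stayed within a tolerance and 5 did not, and none of the class ratios passed 1 or -1. The tolerance was the spread between neurons of a class for ratios, the SD over pairs of genes for correlations, and 1.5 times for counts. It was wide beside the ratios, 0.47 for the median ratio of 0.51, 0.84 for Apoe (0.42) and 0.89 for Gfap (0.15). The 232 therefore do not show that the ratios are stable. The number of genes that separated the classes was 1. It was 0 when scaled without genes of the mitochondrial genome and 0 when scaled without the 100 highest genes, 1 to 5 with each neuron left out in turn, and 5 with GE neuron 1 and GI neuron 2 both left out. The cause was not tested. The median correlation of pairs was 0.54 to 0.77 with a neuron left out and 0.40 with both of those neurons left out. The median log2 ratio was 0.17 to 0.70, the ratio of sums 0.14 to 0.72 and the number of genes higher in GE neurons 8 to 10 with a neuron left out. Single genes had ratios above 0 in 137 of 150 recomputed values. Over 3 other scalings the median ratio was 0.48 to 0.49, and the median of all genes shifted by -0.03 to 0.04. No paired analysis was possible because GE and GI neurons share no number. With 1 sample per class and neurons of 2 mice, the mouse and the class cannot be told apart, and the depth of GI neuron 3 limits its values to the abundant genes.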

Other observations

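Genes of tanycytes and ependymal cells, which line the third ventricle near these neurons, had class means that differed in the other direction from the astrocyte genes. Across neurons the single genes of this list showed no common direction. Of the 8 at 5 FPKM or more, 4 correlated above 0 with the mean log2 level of the astrocyte genes (median r 0.08). Among 2893 genes at a mean of 20 FPKM or more, 43.1% did (median r -0.10). The summed level of the list correlated at r -0.37. GE neuron 1 had the lowest sum of both lists. All 10 looked for were found, and the 8 at 5 FPKM or more were all higher in GI neurons, with a median log2 ratio of -0.61, where 52.3% of all 6990 genes at that level were higher in GE neurons. Their sums were 268 to 384 FPKM in GE and 435 to 590 FPKM in GI neurons and did not overlap. Of single genes, 2.02% had every GI neuron above every GE neuron. No such share was computed for sums of lists, so the sums cannot be set against it. Dynlrb2, a dynein light chain, averaged 113 FPKM in GE against 227 FPKM in GI neurons, Crym, of tanycytes, 40.8 and 75.0 FPKM, and Rarres2, the chemerin precursor, 110 and 121 FPKM. Dynlrb2 did not overlap between classes, with at most 121 FPKM in GE and at least 189 FPKM in GI neurons. Crym and Rarres2 overlapped. Foxj1, the regulator of motile cilia, was listed in 3 of the 7 neurons.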
